A study of Homo sapiens with 6 samples.

Results

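The expression of 84 cell cycle genes in HMC-1.2 cells treated with SPHK2-I was set directly against that in cells treated with SPHK1-I. This comparison uses 4 of the 6 samples of the study and takes every cell cycle gene of the array. HMC-1.2 is a human neoplastic mast cell line that carries the oncogenic KIT mutations D816V and V560G, and all samples share this background. The 2 SPHK2-I samples received 50 µM of ABC294640, an inhibitor of sphingosine kinase 2, and the 2 SPHK1-I samples received 5 µM of SKI-178, an inhibitor of sphingosine kinase 1, each for 24 h. The other 2 samples received the vehicle, 0.1% DMSO, for 24 h. The doses are not matched, so the inhibitor and its dose cannot be told apart in any difference below. The samples of a group are numbered 1 and 2, and no source used here says whether these were separate cultures, so the p-values measure only the spread between these samples. No mast cell marker is on the array, so the identity of the cells could not be checked with it.

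Sphingosine kinases turn sphingosine into sphingosine-1-phosphate, a lipid that promotes growth and survival of many cell types, and mast cells hold both isoforms. The division cycle is driven by cyclin-dependent kinases (CDKs) and their cyclins: D cyclins with CDK4 and CDK6 and cyclin E with CDK2 take a cell out of G1, cyclin A acts in S phase and G2, and cyclin B with CDK1 starts mitosis. Before S phase the MCM helicase is loaded on DNA with the help of CDC6, and from G2 on a group of mitotic genes, which include AURKA, BIRC5 and CDC20, reaches its peak. Checkpoint kinases and the CDK inhibitor p21 hold the cycle when DNA is damaged.

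mRNA was measured by SYBR quantitative PCR. Levels are given as a percent of the reference level, which is the geometric mean of B2M, GAPDH, HPRT1 and RPLP0 in the same sample, and they compare samples for 1 gene but not 1 gene with another. Differences are given as SPHK2-I minus SPHK1-I in mean −ΔCt, a log2 scale on which a positive value means more mRNA with SPHK2-I. They were tested with limma (two-sided) in 1 model of all 6 samples, and genes count as called where p, adjusted over all 84, was below 0.05. With 2 samples against 2, no exact permutation p can be smaller than 0.333. The extracts hold all cells of a culture, so a change in the share of cells in a phase and a change in the mRNA per cell cannot be told apart. SPHK1-I sample 2 stood apart: its median threshold cycle (Ct) was 29.5, while the other 5 samples ranged over 27.0 to 28.0, and it had 37 genes past a Ct of 30, against 9 to 13. Its reverse transcription control wells had a mean Ct of 24.4, against 24.1 to 24.3 elsewhere. Its reference genes had a mean Ct of 24.3, against 22.1 to 22.7 elsewhere. A limit on Ct, used below as an alternative, thus sets a higher floor relative to the reference in this sample than in the others. The duplicates were closer with SPHK2-I than with SPHK1-I, with an SD across genes of their log2 difference of 0.13 and 0.48. They lay at least 1.5-fold apart in 1 gene with SPHK2-I and in 26 genes with SPHK1-I. The 1 gene with SPHK2-I was CDK5R1, whose Ct was at the upper limit of 35 in sample 2. Of the reference genes, RPLP0 and GAPDH were 0.21 and 0.14 higher with SPHK2-I than with SPHK1-I on the log2 scale relative to the mean of the 4, and B2M and HPRT1 had differences of −0.19 and −0.17.

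Between the inhibitors, 26 genes differed (31.0% of those tested), 13 higher and 13 lower with SPHK2-I (15.5% each). Genes of mitosis and of the S, G2 and M cyclins made up most of the lower ones, together with CDK6 and the CDK inhibitor CDKN1A. The higher ones held 4 of 5 replication licensing genes, both G cyclins, genes of DNA repair and checkpoints, CDK4 and CCND3. The differences spanned 1.42-fold to 3.01-fold in the lower genes and 1.46-fold to 2.64-fold in the higher ones, and 20 of the 26 were at least 1.5-fold, as were 21 of all genes (25.0%). At an unadjusted p under 0.05 there were 33 genes (39.3%). In each of the 26 the SPHK2-I samples did not overlap the SPHK1-I samples, which was so in 49 of the 84 genes (58.3%), 29 above and 20 below. The median difference over the 84 genes was 0.13. It was −0.05 against SPHK1-I sample 1 alone and 0.31 against SPHK1-I sample 2 alone, and 28 genes had differences of opposite sign against the 2 samples, none of them among the 26. Without SPHK1-I sample 1 limma called 42 genes higher and 19 lower, and without SPHK1-I sample 2 it called 19 higher and 23 lower. In these fits the remaining SPHK1-I sample is assumed to vary like the other groups, so they lend the calls no support. The duplicates of those groups were closer (SD 0.13 with SPHK2-I and 0.17 with vehicle, against 0.48 with SPHK1-I). The main model, too, takes 1 spread per gene from all 3 groups. Its standard errors, p-values and intervals thus also rest on SPHK1-I varying like the other groups. Without either vehicle sample or either SPHK2-I sample, or with only the 2 inhibitor groups in the model, 0 genes were called by limma, with 27, 27, 21, 20 and 27 genes at an unadjusted p under 0.05 in that order.

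**Figure D1:**
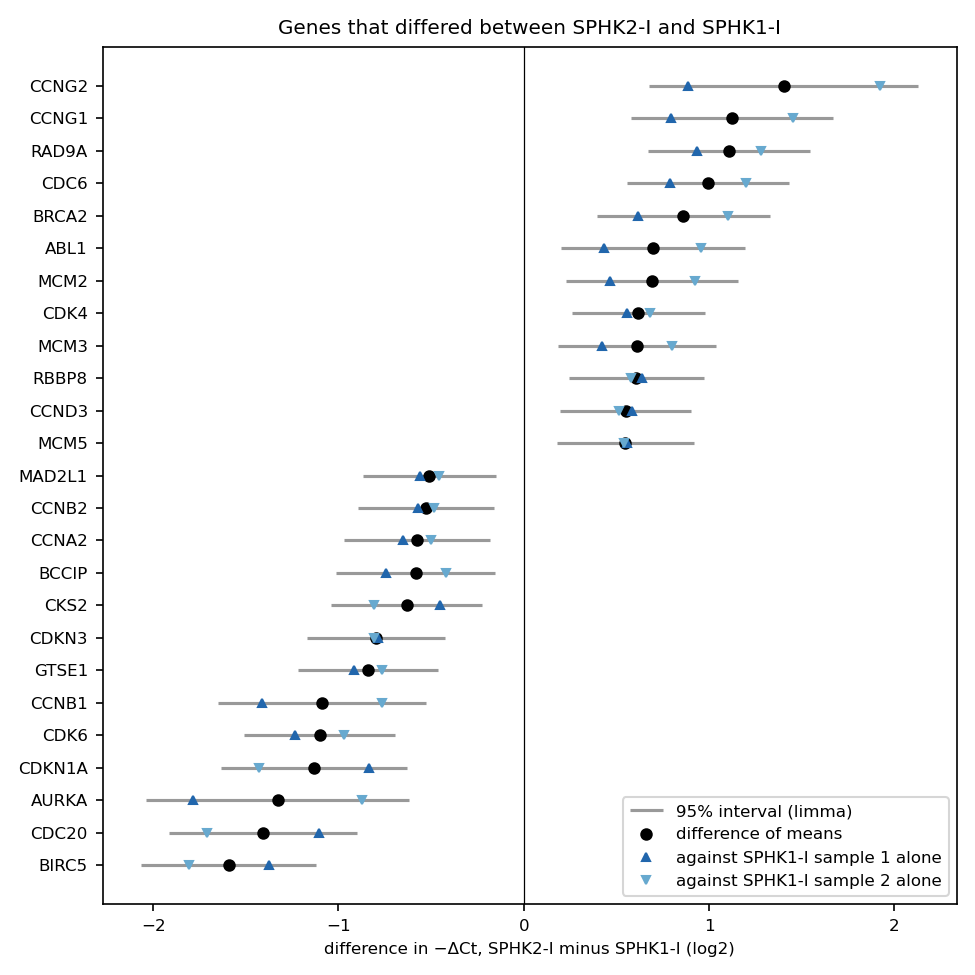
Difference in −ΔCt (log2, horizontal axis), SPHK2-I minus SPHK1-I, for 25 of the 26 genes at an adjusted p below 0.05. Black points are differences of the means, grey lines their 95% intervals from limma, and triangles the mean of SPHK2-I against each SPHK1-I sample alone; in every gene both triangles lie on the same side of 0.

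The mitotic genes BIRC5, CDC20 and AURKA had the largest negative differences. BIRC5, or survivin, a subunit of the chromosomal passenger complex that also restrains cell death, was at 0.198% and 0.178% of the reference level in the SPHK2-I samples, against 0.487% and 0.658% in the SPHK1-I samples. It was 3.01-fold lower with SPHK2-I (log2 difference −1.59, standard error 0.20, adjusted p = 0.00652), and its Ct was above 30 in 5 of the 6 samples. Both samples of each inhibitor were among these 5. With every Ct limited to 30 its difference was −0.72 (limma, adjusted p = 0.418). That value comes from the limit and the reference genes alone, so this setting cannot test BIRC5. CDC20, which activates the anaphase-promoting complex, was at 4.91% and 4.70% of the reference level in the SPHK2-I samples, against 10.3% and 15.7% in the SPHK1-I samples. This was 2.65-fold lower with SPHK2-I (log2 difference −1.41, standard error 0.22, adjusted p = 0.00930). For both genes the SPHK2-I duplicates were close together and SPHK1-I sample 2 was the highest of the 4 samples. The kinase AURKA, which matures the centrosomes and builds the spindle poles, was at 3.21% and 3.01% of the reference level in the SPHK2-I samples, against 10.7% and 5.69% in the SPHK1-I samples. AURKA was 2.51-fold lower with SPHK2-I (log2 difference −1.33, standard error 0.30, adjusted p = 0.0185). Here SPHK1-I sample 1 was the highest, and the difference was −1.78 against it and −0.87 against SPHK1-I sample 2. MAD2L1, the spindle checkpoint protein that holds CDC20 back until chromosomes are attached, was at 11.5% and 10.7% of the reference level in the SPHK2-I samples, against 16.3% and 15.2% in the SPHK1-I samples (log2 difference −0.51, standard error 0.15, adjusted p = 0.0404). Of the 7 mitotic kinases, spindle genes and proliferation markers, 0 were called higher and 2 lower, against 15.5% of all genes each way. Their median was −0.11, and the 5 others lay between −0.27 (MKI67) and 0.39 (KNTC1). Of the 5 genes of the anaphase-promoting complex and spindle checkpoint, 2 were called lower, against 15.5% of all genes, with a median of −0.20.

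Of the 9 cyclins of S, G2 and M phase and genes of G2/M entry, 5 were called lower with SPHK2-I, against 15.5% of all genes, and 0 higher. CCNB1, the cyclin that activates CDK1 at the start of mitosis, was at 2.67% and 2.61% of the reference level in the SPHK2-I samples, against 7.03% and 4.48% in the SPHK1-I samples. It was 2.13-fold lower with SPHK2-I (log2 difference −1.09, standard error 0.24, adjusted p = 0.0170), and its SPHK2-I duplicates were much closer than its SPHK1-I duplicates. The related CCNB2 was at 5.16% and 4.56% of the reference level in the SPHK2-I samples, against 7.21% and 6.79% in the SPHK1-I samples (log2 difference −0.53, standard error 0.16, adjusted p = 0.0404). CCNA2, the cyclin of S phase and G2, was at 6.75% and 5.59% of the reference level in the SPHK2-I samples, against 9.64% and 8.69% in the SPHK1-I samples (log2 difference −0.57, standard error 0.17, adjusted p = 0.0404). For both cyclins each pair of duplicates was closer together than the groups were to each other. GTSE1, a microtubule protein of G2 and mitosis, was at 2.05% and 1.86% of the reference level in the SPHK2-I samples, against 3.68% and 3.32% in the SPHK1-I samples, and was 1.79-fold lower with SPHK2-I (log2 difference −0.84, standard error 0.16, adjusted p = 0.0113). CDKN3, a phosphatase that takes the activating phosphate off CDK2, was at 4.05% and 3.46% of the reference level in the SPHK2-I samples, against 6.47% and 6.55% in the SPHK1-I samples, and was 1.74-fold lower with SPHK2-I (log2 difference −0.80, standard error 0.16, adjusted p = 0.0127). In GTSE1 and CDKN3, as in the 3 cyclins, no SPHK2-I sample reached the level of an SPHK1-I sample. The median difference of the list was −0.53, against 0.13 for all genes, and its other 4 members (CCNF, CDK1, WEE1 and CDC25C) lay between −0.26 and 0.20. CKS2, a small protein that binds CDKs, was also lower with SPHK2-I, at 26.5% and 25.8% of the reference level in the SPHK2-I samples, against 35.8% and 45.7% in the SPHK1-I samples (log2 difference −0.63, standard error 0.17, adjusted p = 0.0365). Its relative CKS1B, which helps SKP2 to recognise p27, had a difference of 0.40 (adjusted p = 0.132), with both SPHK2-I samples above both SPHK1-I samples.

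**Figure D2:**
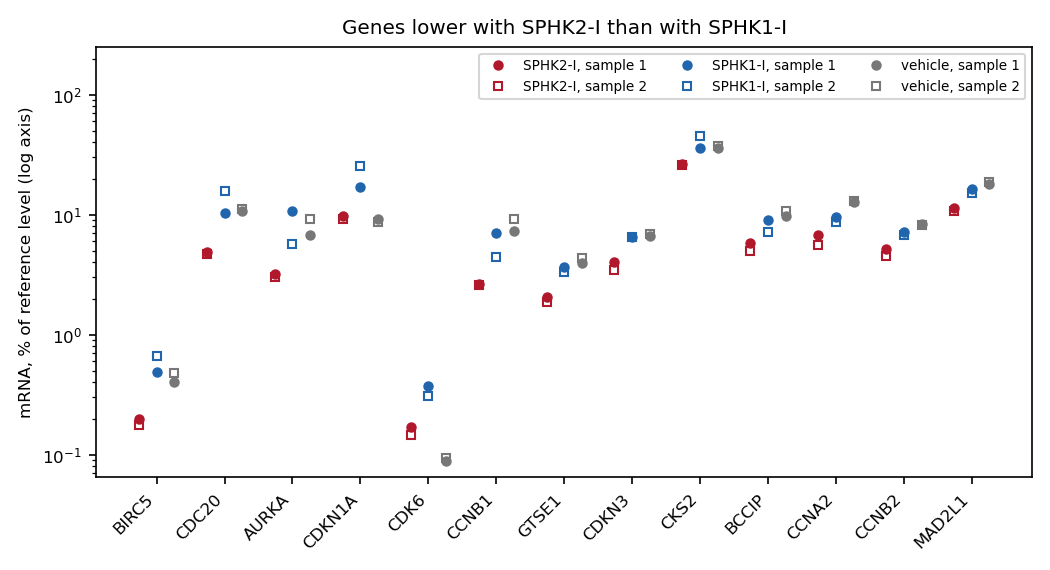
Level of each of the 13 genes lower under SPHK2-I than under SPHK1-I, as a percent of the reference level (vertical log axis), in every sample: SPHK2-I in red, SPHK1-I in blue and vehicle in grey, filled circles for sample 1 and open squares for sample 2. No SPHK2-I point reaches an SPHK1-I point of its gene, and in BIRC5, CDK6 and CDKN1A the vehicle lies below the SPHK1-I points.

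Promoters of a pair of genes called lower with SPHK2-I, from mitosis and G2, and of a pair of licensing genes called higher are shown. They are RefSeq sequences of GRCh38.p14 from 250 bases before to 50 bases after the gene's start, and 68 of the 84 genes had one; BIRC5, AURKA, BCCIP and MCM5 are among the called genes without one. Capitals mark the 3 motifs searched, with matches on the other strand as their reverse complement: the cell cycle homology region (CHR, TTTGAA or TTCGAA), an element of promoters that peak in G2 and mitosis; the CCAAT box (CCAAT); and the E2F motif (TTGGCGC or TTCGCGC), an element of promoters that peak around the start of S phase. CDC20 (chr1:43358731-43359030, plus strand) and CCNB2 (chr15:59104896-59105195, plus strand) were lower with SPHK2-I, and CDC6 (chr17:40287629-40287928, plus strand) and MCM2 (chr3:127598161-127598460, plus strand) were higher.
CDC20: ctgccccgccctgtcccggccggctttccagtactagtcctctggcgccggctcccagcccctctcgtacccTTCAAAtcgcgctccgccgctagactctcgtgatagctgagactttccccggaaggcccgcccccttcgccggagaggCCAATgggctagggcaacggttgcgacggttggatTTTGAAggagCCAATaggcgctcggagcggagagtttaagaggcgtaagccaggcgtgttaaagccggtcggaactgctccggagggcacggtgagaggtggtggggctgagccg
CCNB2: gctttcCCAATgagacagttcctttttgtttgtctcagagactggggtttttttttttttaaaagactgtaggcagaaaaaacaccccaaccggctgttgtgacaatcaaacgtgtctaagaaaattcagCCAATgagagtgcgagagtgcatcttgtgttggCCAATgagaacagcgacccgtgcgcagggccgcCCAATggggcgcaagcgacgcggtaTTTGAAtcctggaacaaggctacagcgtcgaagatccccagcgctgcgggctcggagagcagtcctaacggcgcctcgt
CDC6: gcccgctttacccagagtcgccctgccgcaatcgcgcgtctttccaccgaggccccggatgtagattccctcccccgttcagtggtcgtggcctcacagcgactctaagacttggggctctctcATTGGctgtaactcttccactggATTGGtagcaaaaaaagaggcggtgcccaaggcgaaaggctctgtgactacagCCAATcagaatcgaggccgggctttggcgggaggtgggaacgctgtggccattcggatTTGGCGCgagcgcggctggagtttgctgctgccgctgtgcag
MCM2: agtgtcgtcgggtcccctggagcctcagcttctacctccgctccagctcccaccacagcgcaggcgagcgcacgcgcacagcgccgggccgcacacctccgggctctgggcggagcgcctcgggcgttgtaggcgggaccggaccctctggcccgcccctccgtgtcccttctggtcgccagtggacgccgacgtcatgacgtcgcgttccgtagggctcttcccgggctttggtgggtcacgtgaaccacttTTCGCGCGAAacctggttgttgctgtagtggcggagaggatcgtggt

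In these windows CDC20 held CHR letters 178 and 65 bases before the start and CCAAT boxes at 100 and 55, and CCNB2 held CHR letters 29 bases before the start with CCAAT boxes at 54, 87, 120 and 244. CDC6 and MCM2 had no CHR match and held E2F letters just after the start, with the 2 matches of MCM2 overlapping each other, and CDC6 held CCAAT boxes at 126, 103 and 50. The CHR letters were in 6 of 10 promoters of the genes lower with SPHK2-I (60.0%; CDC20, GTSE1, CDKN3, CKS2, CCNB2 and MAD2L1) and in 0 of 11 of the genes higher with SPHK2-I. They were in 19.1% of the 47 promoters of genes not called and in 16.6% of all 27305 promoters in the table. CCAAT was in 8 of 10 promoters of the lower genes (80.0%), in 5 of 11 of the higher genes (45.5%), in 44.7% of those of genes not called and in 35.7% of all promoters. The E2F letters were in 2 of 10 promoters of the lower genes, in 3 of 11 of the higher genes (27.3%), in 14.9% of those of genes not called, in 17.6% of the 68 promoters of the array and in 5.18% of all promoters. These are counts of letters in a fixed window and were not tested.

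The G1 kinases CDK6 and CDK4 differed in opposite directions. CDK6 was at 0.170% and 0.145% of the reference level in the SPHK2-I samples, against 0.370% and 0.308% in the SPHK1-I samples, and vehicle cells had 0.0884% and 0.0929%. It was 2.15-fold lower with SPHK2-I (log2 difference −1.10, standard error 0.17, adjusted p = 0.00930). CDK6 had a Ct above 30 in all 6 samples. CDK4, which pairs with the same D cyclins, was at 12.2% and 11.5% of the reference level in the SPHK2-I samples, against 8.04% and 7.40% in the SPHK1-I samples. It was 1.54-fold higher with SPHK2-I (log2 difference 0.62, standard error 0.15, adjusted p = 0.0243). Their partner CCND3 was at 24.0% and 22.5% of the reference level in the SPHK2-I samples, against 15.5% and 16.3% in the SPHK1-I samples, and was 1.46-fold higher (log2 difference 0.55, standard error 0.15, adjusted p = 0.0365). For CDK4 and CCND3 the SPHK2-I samples were near the vehicle samples (13.5% and 13.9% for CDK4 and 25.3% and 23.8% for CCND3) and the SPHK1-I samples were the low ones. CDK4 and CCND3 lost their call in limma with GAPDH alone, with RPLP0 alone and with the replicate block, and CDK6 with RPLP0 alone. Without B2M in the reference CCND3 lost its call as well, and CDK4 kept it. Of the 8 G1 cyclins, kinases and phosphatase, 2 were called higher and 1 lower, against 15.5% of all genes each way, with a median of 0.15. The other 5 lay between −0.08 (CDC25A) and 0.41 (CCNE1, cyclin E1, adjusted p = 0.0920), and CCNE1 is named here after its values were seen.

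CDKN1A, or p21, an inhibitor of CDK2 that is induced when DNA is damaged, was at 9.68% and 9.27% of the reference level in the SPHK2-I samples, against 16.9% and 25.5% in the SPHK1-I samples. It was 2.19-fold lower with SPHK2-I (log2 difference −1.13, standard error 0.21, adjusted p = 0.0113). The vehicle samples, at 9.16% and 8.72%, were close to the SPHK2-I samples, and SPHK1-I sample 2 was the highest of the 6. CDKN2B, or p15, which blocks CDK4 and CDK6, was at 0.919% and 0.871% of the reference level in the SPHK2-I samples, against 0.753% and 0.489% in the SPHK1-I samples. Its difference of 0.56 was not past the test (adjusted p = 0.103), though the samples did not overlap. Of the 4 CDK inhibitors 1 was called lower, against 15.5% of all genes, and the median was −0.26.

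All 5 genes that license and copy DNA had positive differences, and 4 were called higher with SPHK2-I, against 15.5% of all genes. That count rests on the reference: with GAPDH alone and without B2M only CDC6 of them was called by limma, and with RPLP0 alone 0 were. With the replicate block, too, only CDC6 was called. CDC6, which loads the helicase, was at 3.94% and 3.60% of the reference level in the SPHK2-I samples, against 2.17% and 1.64% in the SPHK1-I samples. It was 1.99-fold higher with SPHK2-I (log2 difference 1.00, standard error 0.19, adjusted p = 0.0113). The helicase subunit MCM2 was at 6.12% and 5.89% of the reference level in the SPHK2-I samples, against 4.35% and 3.17% in the SPHK1-I samples (log2 difference 0.69, standard error 0.20, adjusted p = 0.0404). MCM3, of the same helicase, was at 5.38% and 4.84% of the reference level in the SPHK2-I samples, against 3.81% and 2.93% in the SPHK1-I samples (log2 difference 0.61, standard error 0.18, adjusted p = 0.0404). In CDC6, MCM2 and MCM3 SPHK1-I sample 2 was the lowest of the 4 samples. MCM5 was at 11.6% and 10.1% of the reference level in the SPHK2-I samples, against 7.36% and 7.46% in the SPHK1-I samples (log2 difference 0.55, standard error 0.16, adjusted p = 0.0404). The SPHK1-I duplicates of MCM5 nearly coincided, below both SPHK2-I samples. MCM4, named after its values were seen, was the gene not called, at 1.89% and 1.72% of the reference level in the SPHK2-I samples, against 1.52% and 1.30% in the SPHK1-I samples (difference 0.36, adjusted p = 0.147). The median of the list was 0.61, and it was 0.46 against SPHK1-I sample 1 alone and 0.80 against sample 2 alone. Relative to vehicle the median of the list was −0.41 with SPHK2-I and −1.13 with SPHK1-I.

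**Figure D3:**
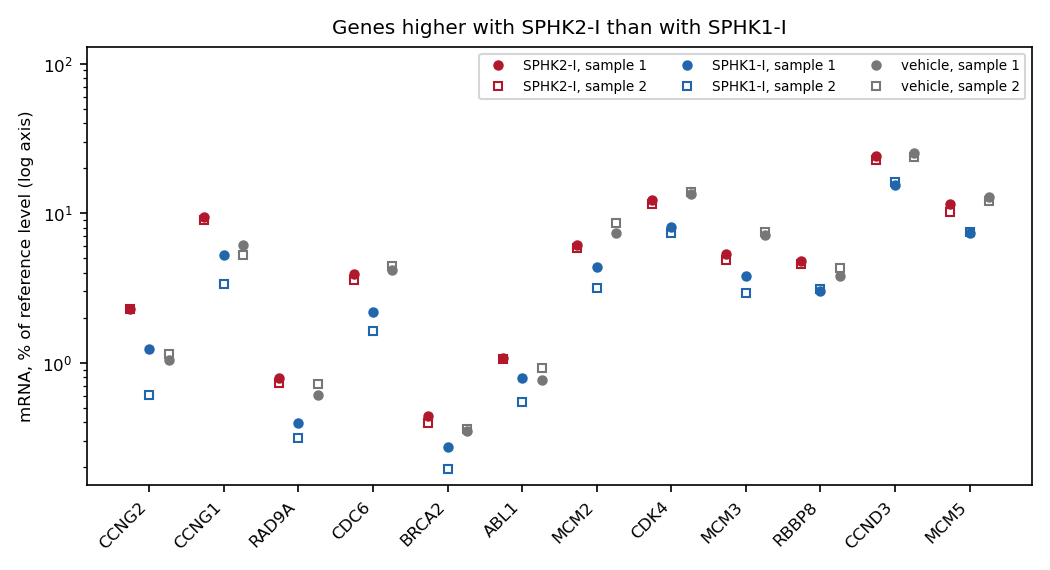
Level of 12 of the 13 genes higher under SPHK2-I than under SPHK1-I, as a percent of the reference level (vertical log axis), in every sample: SPHK2-I in red, SPHK1-I in blue and vehicle in grey, filled circles for sample 1 and open squares for sample 2. The SPHK2-I points lie above the SPHK1-I points of their gene, and SPHK1-I sample 2 is the lower of its pair in 9 of these 12 genes.

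Both G cyclins were higher with SPHK2-I. CCNG1, a cyclin without a clear CDK that is induced by DNA damage, was at 9.43% and 8.97% of the reference level in the SPHK2-I samples, against 5.30% and 3.37% in the SPHK1-I samples. This was 2.18-fold higher with SPHK2-I (log2 difference 1.12, standard error 0.23, adjusted p = 0.0141). CCNG2, a related cyclin linked to exit from the cycle, was at 2.30% and 2.28% of the reference level in the SPHK2-I samples, against 1.24% and 0.606% in the SPHK1-I samples. It had the largest positive difference on the array, 2.64-fold (log2 difference 1.40, standard error 0.31, adjusted p = 0.0170). With every Ct limited to 30 its difference was 0.55 and no longer past the test (adjusted p = 0.157). The difference of CCNG2 was 0.88 against SPHK1-I sample 1 and 1.92 against SPHK1-I sample 2, in which it was lowest. In CCNG1 and CCNG2 the SPHK2-I samples were above the vehicle samples (6.10% and 5.26% for CCNG1 and 1.05% and 1.15% for CCNG2) and SPHK1-I sample 2 was below them. For CCNG1 the difference of SPHK2-I from vehicle did not pass limma (0.70, adjusted p = 0.0604). For CCNG2 SPHK1-I sample 1 was above both vehicle samples. Among genes of growth arrest and apoptosis, SERTAD1, which binds CDK4, had a difference of −0.46 (adjusted p = 0.0532). GADD45A, a growth arrest gene, had one of −0.35 (adjusted p = 0.392), with a Ct above 30 in all 6 samples and an overlap of the inhibitor samples. BCL2, which restrains cell death, had one of −0.0048 (95% interval −0.43 to 0.42), and neither it nor the other 2 passed the test. SERTAD1 and GADD45A are named after their values were seen.

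Among the genes of DNA repair and checkpoints, RAD9A, BRCA2, RBBP8 and ABL1 were higher with SPHK2-I and BCCIP was lower. ABL1 lost its call in limma with GAPDH alone, with RPLP0 alone, without B2M and with the replicate block. RBBP8 lost it with GAPDH alone, with RPLP0 alone and with the block, and RAD9A and BRCA2 with RPLP0 alone. BCCIP was called with 2 of the 8 other references and not with the block. RAD9A, a subunit of the 9-1-1 clamp that marks damaged DNA for the kinase ATR, was at 0.795% and 0.728% of the reference level in the SPHK2-I samples, against 0.399% and 0.313% in the SPHK1-I samples. It was 2.15-fold higher with SPHK2-I (log2 difference 1.11, standard error 0.19, adjusted p = 0.0103). RAD17, which loads the clamp, was at 1.63% and 1.74% of the reference level in the SPHK2-I samples, against 1.38% and 1.01% in the SPHK1-I samples (difference 0.52, adjusted p = 0.0941). The RAD9A samples of the inhibitors lay further apart than the duplicates did. BRCA2, which repairs broken DNA by homologous recombination, was at 0.443% and 0.399% of the reference level in the SPHK2-I samples, against 0.274% and 0.195% in the SPHK1-I samples (log2 difference 0.86, standard error 0.20, adjusted p = 0.0185). In BRCA2, as in RAD17, SPHK1-I sample 2 was the lowest. RBBP8, or CtIP, which starts the resection of DNA ends, was at 4.80% and 4.56% of the reference level in the SPHK2-I samples, against 3.01% and 3.14% in the SPHK1-I samples (log2 difference 0.61, standard error 0.16, adjusted p = 0.0287). ABL1, a tyrosine kinase activated by ATM, was at 1.07% and 1.06% of the reference level in the SPHK2-I samples, against 0.789% and 0.548% in the SPHK1-I samples (log2 difference 0.70, standard error 0.21, adjusted p = 0.0427), and its difference was 0.43 against SPHK1-I sample 1 and 0.96 against sample 2. BCCIP, which binds BRCA2 and p21, ran against the others and was lower with SPHK2-I, at 5.84% and 5.00% of the reference level in the SPHK2-I samples, against 9.05% and 7.24% in the SPHK1-I samples (log2 difference −0.58, standard error 0.18, adjusted p = 0.0465). Of the 10 genes of ATM, CHK2 and break repair, 3 were called higher and 1 lower, against 15.5% of all genes each way. The median was 0.47, and 9 of 10 differences were positive, as were 50 of 84 over all genes. Of the 6 genes of ATR, CHK1 and the 9-1-1 clamp, 1 was called higher, against 15.5% of all genes, with a median of 0.26. Against SPHK1-I sample 1 alone these medians were 0.09 and 0.18, and against sample 2 alone 0.58 and 0.54. The Ct was above 30 in 2 samples for RAD9A, in 1 for ABL1 and in 6 for BRCA2. With every Ct limited to 30 the differences of RAD9A and ABL1 turned to −0.44 and −0.22. The floor set by that limit is highest, relative to the reference, in SPHK1-I sample 2, so this setting cannot decide their direction.

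In 3 further groups few or no genes were called. All 7 pocket proteins, E2F and DP factors, which switch on the genes of S phase or hold them silent, had positive differences, from 0.03 (E2F4) to 0.47 (RB1), against 50 of 84 over all genes, but 0 passed limma (1 at an unadjusted p under 0.05). Their median was 0.40, and 0.07 against SPHK1-I sample 1 alone. TFDP2, the DP partner of E2F factors, was at 4.28% and 4.17% of the reference level in the SPHK2-I samples, against 3.13% and 3.27% in the SPHK1-I samples (adjusted p = 0.0920), with duplicates close together in both groups. E2F1, the activator of S phase genes, was at 1.70% and 1.40% of the reference level in the SPHK2-I samples, against 1.29% and 1.02% in the SPHK1-I samples (difference 0.43, adjusted p = 0.132). Of the 8 CDK-activating, transcriptional and CDK5-linked genes, 0 were called by limma (0 at an unadjusted p under 0.05), and 7 had negative differences, against 34 of 84 over all genes. The median of the 8 was −0.17. CCNC, the cyclin of CDK8, had a difference of −0.26 (adjusted p = 0.304). CDK5R1, the activator of CDK5, was past 1.5-fold without being called (−0.66, adjusted p = 0.301), the only such gene of the 21 past that limit. Its samples overlapped, at 0.0303% and 0.0195% of the reference level in the SPHK2-I samples, against 0.0243% and 0.0612% in the SPHK1-I samples. The Ct of CDK5R1 was above 30 in all 6 samples and at the limit of 35 in sample 2 of each inhibitor. Those 2 levels are set by the limit and the reference genes, so the difference cannot be read as one in CDK5R1 mRNA. Of the 7 genes of the SCF ligase, cullins and CKS proteins, CKS2 alone was called, and the median was 0.10.

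**Figure D4:**
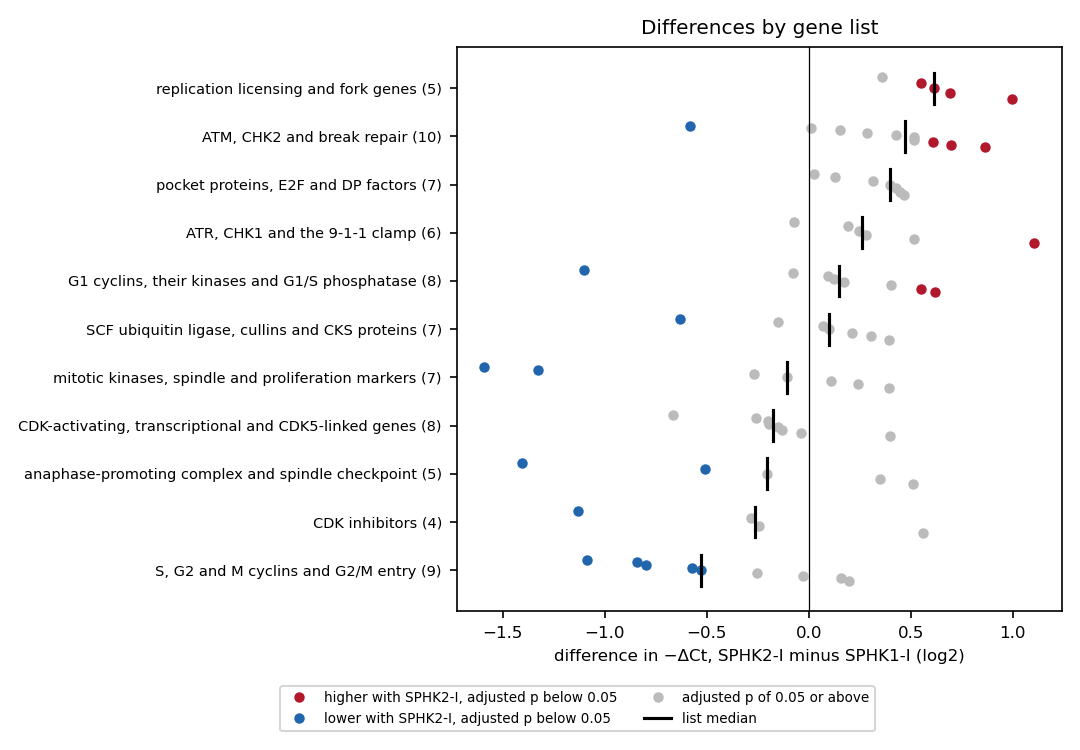
Difference in −ΔCt (log2, horizontal axis), SPHK2-I minus SPHK1-I, for the genes of 11 of the 12 lists, with the number of genes in brackets. Red and blue points are genes higher and lower with SPHK2-I at an adjusted p below 0.05, grey points the others, and black bars the list medians, which run from 0.61 for the licensing genes to −0.53 for the S, G2 and M cyclins.

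A p that misses the threshold does not show that the inhibitors acted alike, so the 95% intervals were read. In 15 genes (17.9%) the interval lay within 1.5-fold of no difference: AURKB, BCL2, CCND1, CCNH, CDC25C, CDK2, CDK5RAP1, CDK7, CUL1, CUL3, E2F4, HUS1, MNAT1, NBN and SKP2. BCL2, CDC25C and CDK5RAP1 had a Ct above 30 in all 6 samples and HUS1 in 3. A change of reference moves every interval, so these hold for the authors' 4 reference genes. NBN, a part of the complex that senses broken DNA, was nearest to 0 after BCL2, at 0.01 (95% interval −0.41 to 0.43), followed by E2F4, a repressor of cell cycle genes, at 0.03 (−0.46 to 0.51). In 43 further genes (51.2%) that were not called the interval reached past 1.5-fold on at least one side, so a difference of that size could not be told from none. AURKB and BIRC5 encode partners in the passenger complex: AURKB differed by −0.11 (95% interval −0.49 to 0.28) and BIRC5 by −1.59 (−2.06 to −1.12).

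Both inhibitors are measured against the same vehicle samples, so the changes from vehicle are given side by side. Among the 13 genes lower with SPHK2-I in the direct comparison, limma called 10 lower under SPHK2-I than under vehicle and 0 lower under SPHK1-I. Of all genes, 23.8% were lower than vehicle with SPHK2-I and 31.0% with SPHK1-I. The 13 were picked for SPHK2-I values below the SPHK1-I values of these same samples, which by itself favours such counts. The shares of all genes, which were not picked so, thus cannot show whether the counts are unusual. The differences from vehicle for BIRC5 were −1.22 with SPHK2-I and 0.37 with SPHK1-I on the log2 scale, and for CCNB1 −1.64 and −0.55, and in both genes the first passed the test and the second did not. CDK6 was higher than vehicle with both, by 0.80 and 1.90, and CDKN1A differed from vehicle by 0.08 with SPHK2-I, which did not pass, and by 1.22 with SPHK1-I, which did. Among the 13 genes higher with SPHK2-I in the direct comparison, 8 were lower under SPHK1-I than under vehicle and 0 under SPHK2-I. Picking these genes for SPHK1-I values below the SPHK2-I values favours these counts in the same way. CCNG2 was higher than vehicle with SPHK2-I, by 1.06, as 4.76% of all genes were, and its difference of −0.34 with SPHK1-I did not pass. CDC6 differed from vehicle by −0.19 with SPHK2-I and −1.19 with SPHK1-I, and RAD9A by 0.20 and −0.90, of which the SPHK1-I values passed and the SPHK2-I values did not. The vehicle mean lay between the inhibitors in 7 of the higher genes and above both in 6, which were the 4 licensing genes, CDK4 and CCND3. Over all 84 genes it lay above both in 49, between them in 23 and below both in 12. In the lower genes it lay above both in 8 and between them in 3 (BIRC5, CDC20 and CKS2). It lay below both in 2 (CDK6 and CDKN1A). Picking genes by the gap between the inhibitors also bears on these positions, so the counts over all 84 genes are no yardstick for them.

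The balance of higher and lower genes depended on the reference for ΔCt. A change of reference shifts the differences of all genes by 1 amount, set by the difference of that reference. The largest of these was −0.26 (ACTB), and the smallest of the 26 in size was −0.51 (MAD2L1), so no sign among the 26 could change. With ACTB alone 34 genes were called higher and 6 lower, with B2M alone 28 and 8, and with HPRT1 alone 25 and 8. With GAPDH alone 6 were higher and 14 lower, and with RPLP0 alone 0 were higher and 3 lower (20 genes at an unadjusted p under 0.05), which were BIRC5, CDC20 and CDKN1A. The median of the 84 genes moved to 0.38 with ACTB alone and to −0.09 with RPLP0 alone. BIRC5 and CDC20 were called with all 8 other references tried, BCCIP with 2, MAD2L1 with 3, CCNA2, CCNB2 and CKS2 with 4 each, and the other 19 genes with 5 to 7.

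**Figure D5:**
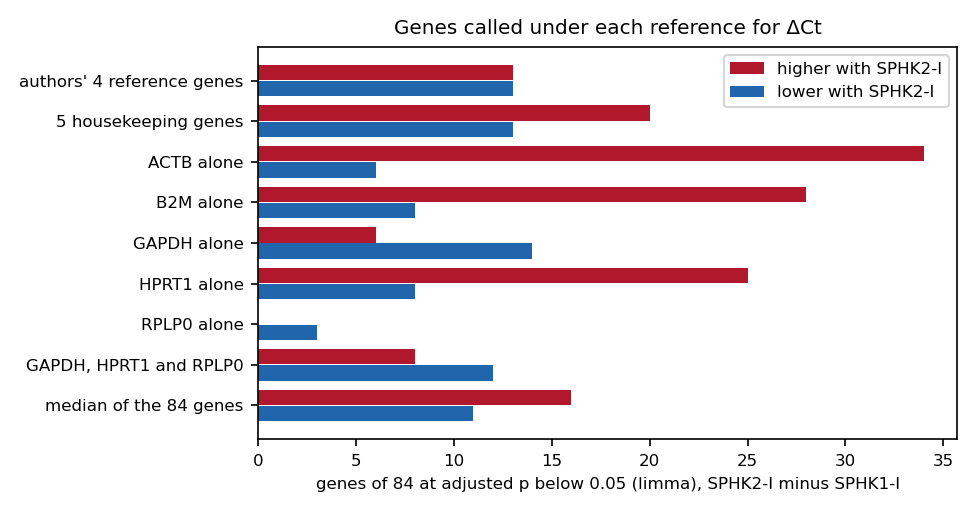
Number of the 84 genes called by limma at an adjusted p below 0.05 (horizontal axis) as higher (red) or lower (blue) under SPHK2-I than under SPHK1-I, for each reference from which ΔCt was taken. The counts are 13 and 13 with the authors' 4 reference genes, 34 and 6 with ACTB alone and 0 and 3 with RPLP0 alone.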

How the data were processed

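Total RNA of HMC-1.2 cells was reverse transcribed and measured by the authors on an RT2 Profiler PCR array for the human cell cycle, which carries 84 genes of the cycle beside 5 housekeeping genes and 7 wells for controls. The authors' Ct values, a log2 scale, are limited to 35 and came from the web software of the manufacturer (version: not given in the sources used). Their deposited ΔCt values (log2) are relative to the mean of B2M, GAPDH, HPRT1 and RPLP0, whose ΔCt values sum to at most 1.0e-06 in each sample. The deposited ratio, 2 to the power of minus ΔCt, equals the power of the ΔCt values to within 5.4e-07. The authors' fold columns against vehicle were not used.

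Here −ΔCt was tested with limma 3.58.1 in R 4.3.3 (3 groups, 6 samples, residual df 3, prior df 4.33, prior SD 0.191, no replicate block), with Benjamini-Hochberg adjustment over the 84 genes. The number of samples limits the precision. The named genes were those called, the 2 of each of 12 lists with the smallest p and the 3 nearest to 0, and SERTAD1, MCM4, CCNE1, GADD45A, the ends of ranges and the genes listed for their intervals were named after their values were seen. One called gene is not reported here, though it enters the counts. The genes, lists and tests were chosen with earlier results of these data known. Symbols of all 84 genes were found in a RefSeq table. Across genes, the deviations of same-numbered samples had r = −0.04 between SPHK2-I and SPHK1-I. They had r = −0.11 between SPHK2-I and vehicle and r = −0.26 between SPHK1-I and vehicle. Alternatives changed the reference, the Ct limit, a filter on late Ct, the samples, a replicate block, the limma settings, sample weights and the test.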

Additional observations from a re-analysis of the deposited data

How the results depend on the processing

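With the authors' 4 reference genes 13 genes were higher and 13 lower with SPHK2-I, and 21 were past 1.5-fold. The higher and lower counts were 20 and 13 with all 5 housekeeping genes as reference, 34 and 6 with ACTB alone, 28 and 8 with B2M alone, 6 and 14 with GAPDH alone, 25 and 8 with HPRT1 alone, 0 and 3 with RPLP0 alone and 8 and 12 without B2M. Genes past 1.5-fold numbered 36 with ACTB and 32 with B2M alone, and the median difference was 0.38 with ACTB alone. Leaving out 1 sample at a time gave 0 to 42 higher genes, 0 to 23 lower genes, 21 to 33 genes past 1.5-fold and medians of −0.05 to 0.31; the counts were 0 without either vehicle or SPHK2-I sample. In each such fit, those with a lone SPHK1-I sample included, the lone sample is assumed to vary like the other groups. The replicate block gave 6 higher and 8 lower genes, all 14 among the 26. Whether same-numbered samples belong together is not stated, so it cannot be told whether the block is needed. Only the 2 inhibitor groups gave 0 and 0 (27 at an unadjusted p under 0.05), a weight per sample 8 and 8, the methods' t-test 0 and 0 after Benjamini-Hochberg adjustment and 10 and 8 unadjusted. Trend and robust settings kept 25 of the 26 calls, and leaving out genes with a mean Ct above 30 kept 22 of the calls among 69 genes tested.

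Of the 26 called genes none changed sign, except with Ct limited to 30, where RAD9A was at −0.44 and ABL1 at −0.22; that limit replaces their late Ct values in part of the samples. CCNG2 (0.55) and BCCIP (−0.58, adjusted p = 0.0582) kept their sign there but lost their call in limma, and CDK6 and BRCA2 were not tested there. BIRC5 also lost its call there, but its value of −0.72 came from the limit and the reference genes alone. CDKN2B (−0.44) and E2F1 (−0.041) turned there too. Genes near 0 turned with the reference: BCL2 was at 0.046 with 5 housekeeping genes, 0.25 with ACTB, 0.18 with B2M, 0.16 with HPRT1 and 0.092 with the median gene. With GAPDH alone, RPLP0 alone and without B2M, E2F4 was at −0.11, −0.19 and −0.036, and NBN at −0.13, −0.20 and −0.051. With 1 sample left out the ranges were −0.18 to 0.17 for BCL2, −0.23 to 0.29 for E2F4, −0.17 to 0.20 for NBN, −1.33 to 0.0029 for CDK5R1 and −0.78 to 0.076 for GADD45A, and the cause of these turns was not tested. The range of CDK5R1 rests in part on Ct values at the limit of 35.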
